A study of Mus musculus with 24 samples.

Results

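The genes described here are 9 inflammatory myeloid and chemokine genes, S100a8, S100a9, Acod1, Ccl24, Cxcl10, Cxcl9, Ccl3, Ccl4 and Il1b, out of 55401 genes in the files. They were matched by gene symbol, and the estimated counts of their transcripts were summed by gene. Of the 9, 8 had enough counts to be tested, and Cxcl9 did not. Several of the genes were chosen by their rise after anti-CD3 in the vehicle-treated mice of these data. Changes between the vehicle groups are therefore given as a description without tests. The 24 libraries came from male C57BL/6 mice 11 weeks old given either propyzamide, which is used as a herbicide and acts on plant microtubules, or vehicle without it. Each treatment had 3 groups of 4 libraries, taken without stimulation or at 3 h or 24 h after anti-CD3. Anti-CD3 is an antibody that binds the T cell receptor complex and activates T cells. The title places the series in mouse T cells of a preclinical model of inflammatory bowel disease, while tissue, cell sorting, doses and route were not given in the sources used here. No genetic modification was named for any group.

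S100a8 and S100a9 encode the subunits of calprotectin, a calcium-binding complex that neutrophils and monocytes carry in bulk and that is measured in stool as a sign of gut inflammation. Acod1 makes itaconate from an intermediate of the citric acid cycle in activated macrophages. Chemokines are secreted proteins that draw leukocytes: CCL24 (eotaxin-2) acts on CCR3 of eosinophils, CXCL9 and CXCL10 are induced by interferon-gamma and act on CXCR3 of T cells, and CCL3 and CCL4 draw monocytes and T cells. Il1b encodes interleukin-1 beta, which is made as a precursor and cut by caspase-1. T cells activated through CD3 release interferon-gamma and other cytokines, which act on macrophages.

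All 9 genes are protein-coding. On GRCm38, 6 of them lie in neighbouring pairs. S100a8 (chromosome 3, 90668978 to 90670035, plus strand) and S100a9 (chromosome 3, 90692632 to 90695721, minus strand) are 22596 bases apart. Cxcl9 (chromosome 5, 92321347 to 92328079, minus strand) and Cxcl10 (chromosome 5, 92346638 to 92348889, minus strand) are 18558 bases apart, and Ccl24 lies elsewhere on the same chromosome (135569937 to 135573049, minus strand). Ccl3 (chromosome 11, 83647844 to 83649355, minus strand) and Ccl4 (chromosome 11, 83662584 to 83664683, plus strand) are 13228 bases apart. Acod1 is on chromosome 14 (103046977 to 103056573, plus strand) and Il1b on chromosome 2 (129364570 to 129371139, minus strand).

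The promoters of 4 genes with low counts in unstimulated mice are shown: S100a9, which passed the test at 3 h with propyzamide, its partner S100a8, and Cxcl10 and Acod1, whose mean levels were higher at 3 h but did not pass. They are RefSeq windows of build GRCm38.p6, 250 bases before to 50 bases after the start, 5′ to 3′ on the gene's strand; 7 of the 9 genes had a window, and Ccl24 and Ccl4 did not. Capitals mark matches, on either strand, to an interferon response element (GAAANNGAAA), an NF-kappaB site (GGGANNTTCC), a C/EBP site (TTGCNNAA) or a TATA box (TATAAA), where N is any base; no match overlapped another. The windows are chr5:92348840-92349139 (minus strand) for Cxcl10, chr3:90668821-90669120 (plus) for S100a8, chr3:90695672-90695971 (minus) for S100a9 and chr14:103046762-103047061 (plus) for Acod1.
Cxcl10: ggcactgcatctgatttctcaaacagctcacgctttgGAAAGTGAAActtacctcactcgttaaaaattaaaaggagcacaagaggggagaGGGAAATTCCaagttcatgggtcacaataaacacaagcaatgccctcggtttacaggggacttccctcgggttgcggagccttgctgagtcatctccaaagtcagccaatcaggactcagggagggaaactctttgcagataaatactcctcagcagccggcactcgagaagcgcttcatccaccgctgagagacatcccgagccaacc
S100a8: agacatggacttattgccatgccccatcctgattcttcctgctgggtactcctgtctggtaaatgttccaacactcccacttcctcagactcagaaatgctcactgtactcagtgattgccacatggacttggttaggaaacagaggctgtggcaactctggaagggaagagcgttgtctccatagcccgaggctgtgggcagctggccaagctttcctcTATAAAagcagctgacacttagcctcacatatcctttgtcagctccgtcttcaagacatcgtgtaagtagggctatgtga
S100a9: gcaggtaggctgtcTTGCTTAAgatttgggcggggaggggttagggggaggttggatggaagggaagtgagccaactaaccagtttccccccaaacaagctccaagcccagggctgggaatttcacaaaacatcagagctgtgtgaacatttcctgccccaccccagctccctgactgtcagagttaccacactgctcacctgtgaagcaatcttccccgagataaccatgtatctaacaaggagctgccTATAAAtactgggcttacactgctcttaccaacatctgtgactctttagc
Acod1: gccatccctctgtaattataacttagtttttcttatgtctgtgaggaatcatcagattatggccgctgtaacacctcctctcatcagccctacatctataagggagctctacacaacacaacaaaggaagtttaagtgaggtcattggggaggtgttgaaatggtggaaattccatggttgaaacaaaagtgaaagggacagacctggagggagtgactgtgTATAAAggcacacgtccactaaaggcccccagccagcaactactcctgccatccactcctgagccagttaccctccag
The Cxcl10 window held GAAAGTGAAA at its positions 38 to 47 and GGGAAATTCC at positions 92 to 101. Of 32851 windows in the table, 3.44% held the interferon response letters and 1.47% the NF-kappaB letters, and Cxcl10 was the only gene of the 7 with either. The S100a9 window held TTGCTTAA at positions 15 to 22, a letter pattern present in 10.8% of windows. TATAAA was present in 5 of the 7 windows (S100a8, S100a9, Acod1, Cxcl9 and Il1b) against 13.6% of all windows, at any position. It began at positions 221, 223 and 220 in S100a8, Acod1 and Il1b. In S100a9 it began at position 251, the annotated start itself, and in Cxcl9 at position 56, far before the start. These matches are descriptions of the sequence and no binding was measured.

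Libraries were shallow for these genes. Total counts ran from 438750 to 2072033 in 23 libraries, of which 3.77% to 9.85% fell in named protein-coding genes, and a single gene model, Gm10800, took 41.9% to 50.3%. Propyzamide 24 h replicate 3 stood apart with 9812458 counts, 30.5% of them in named protein-coding genes, and it held 3185.5 of the 4922.4 counts of the 9 genes (64.7%). Propyzamide 3 h replicate 3 was the shallowest, with 438750 counts in all and 6.7 in the 9 genes. All 12 T cell marker genes looked up had counts in every group, and so did all those of B cells, plasma cells and Paneth cells; of 10 intestinal epithelium genes, Cdx1 alone was at 0, in vehicle at 24 h and in propyzamide at 3 h. In bulk samples, fewer cells of a type and less RNA per cell cannot be told apart.

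Without stimulation the 9 genes fell into genes that were measurable and genes that were not (plot of each gene in 24 libraries). Il1b was the most abundant per transcript length, at 7.36 ± 2.82 TPM with vehicle and 12.6 ± 3.55 TPM with propyzamide (transcript abundance scaled for length, mean ± SD, n = 4 here and below). Ccl4 followed, with 4.06 ± 2.80 and 5.49 ± 4.78 TPM. Its range overlapped that of Il1b in both treatments, but within every unstimulated library Il1b was above Ccl4. Ccl3 was next by median TPM, and its range overlapped that of Ccl4. S100a9 had 0 counts in all 8 unstimulated libraries. Over the 4 libraries of each unstimulated group, S100a8 had 0 counts with vehicle and 1 with propyzamide, Ccl24 had 1 and 2, Cxcl10 had 1 and 3, and Cxcl9 had 2.02 and 4.47. A count of 0 allows up to 3 counts over a group, which is 0.416 CPM (counts scaled to library size after TMM normalization) for vehicle and 0.682 CPM for propyzamide. Acod1 lay between, with 7 counts in the vehicle group and 21 in the propyzamide group.

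**Figure D1:**
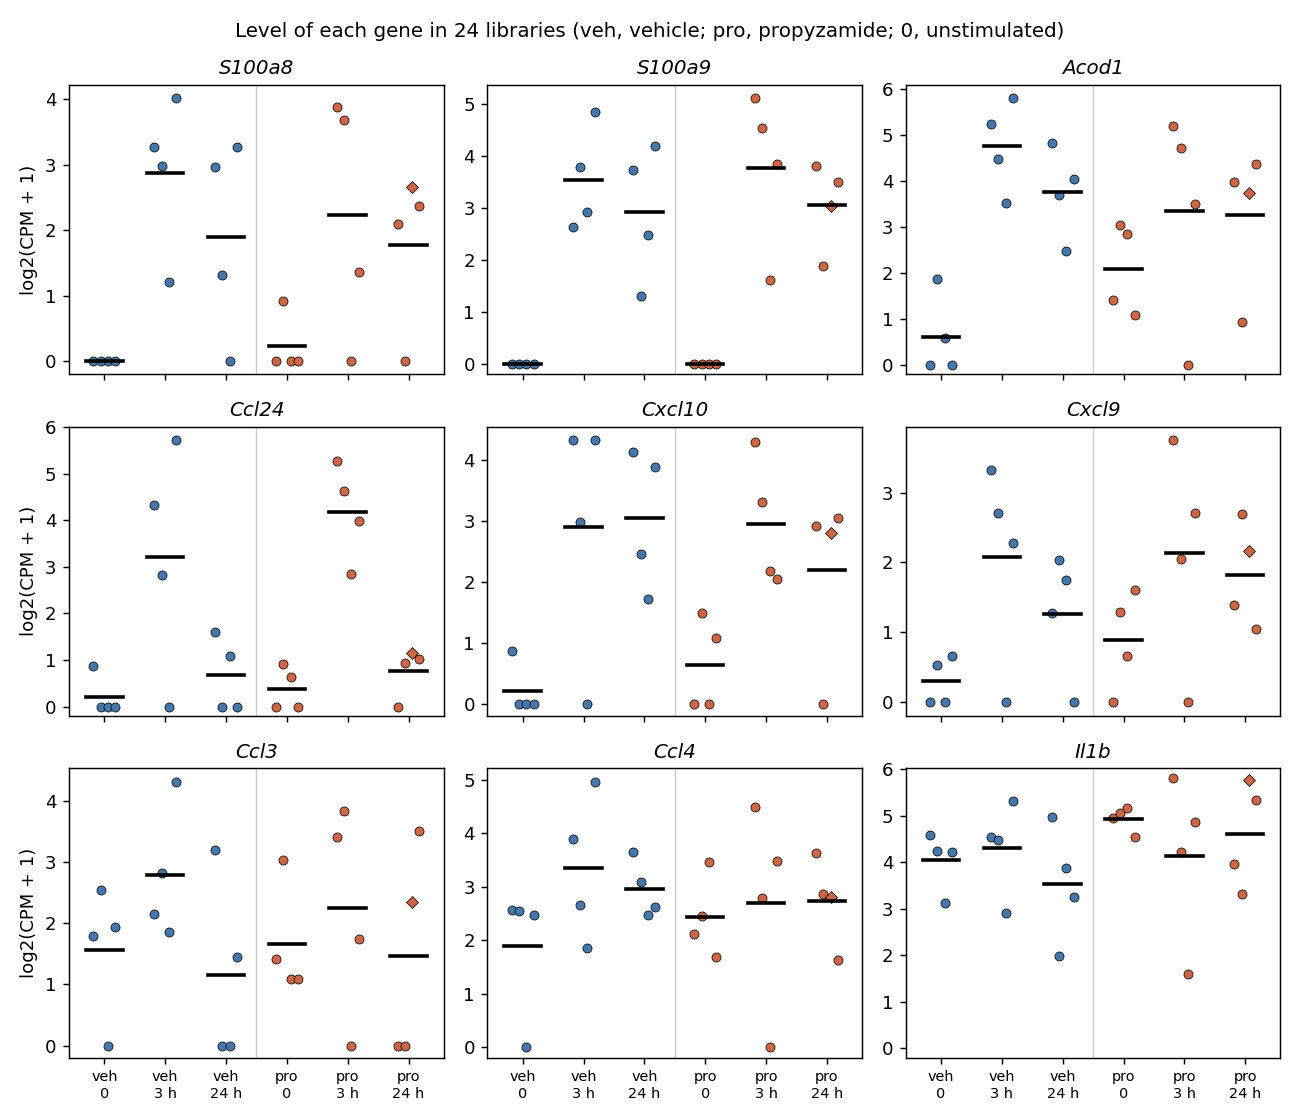
Level of each of the 9 genes in each library, as log2(CPM + 1), by treatment (blue, vehicle; orange, propyzamide) and stage; points are libraries, bars are means over 4 libraries, and the diamond is the deepest library. S100a9 was at 0 in all 8 unstimulated libraries and above 0 in all 16 stimulated ones, Ccl24 was high at 3 h and low at 24 h, and Il1b was present at every stage.

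The anti-CD3 response was tested in the propyzamide-treated mice. The genes were picked with earlier results of these data known, and it is not established that the propyzamide values played no part. At 3 h, Ccl24 and S100a9 rose: Ccl24 went from 0.364 ± 0.443 to 20.6 ± 13.4 CPM and S100a9 from 0 to 17.8 ± 13.4 CPM. These were 2 of 8 genes tested by edgeR's quasi-likelihood test, both higher, where 0.711% of all 3799 genes were called in either direction and 0.158% were called higher. A call needed an adjusted p (Benjamini-Hochberg, over all genes) of at most 0.05. The 8 genes were kept by a filter on counts over all groups. S100a9 and Ccl24 had almost no counts without stimulation. They passed the filter through stimulated libraries and could be called only higher against unstimulated. The count of 2 of 8 and the median below are therefore descriptions and do not measure an excess over all genes. In a fit of just the groups compared, that filter left Il1b alone of them. The median log2 fold change of the 8 genes was 2.80 and that of all tested genes was -0.13. By 24 h Ccl24 fell again, while the other genes did not pass the test between 3 h and 24 h.

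S100a9 had 0 counts in each of the 4 unstimulated propyzamide libraries and 42, 15, 1 and 17 counts in the 4 libraries at 3 h. The groups did not overlap, and the lowest library at 3 h was the shallowest. Set against the floor of 3 counts over the unstimulated group, S100a9 was at least 29.9-fold higher at 3 h (adjusted p = 0.0159, edgeR). Folds given as at least, here and below, take the level after stimulation as observed, without its counting error or the spread between libraries. The shallowest library at 3 h was at 2.06 CPM, against a floor of 0.682 CPM. S100a8, its calprotectin partner, had 0, 1, 0 and 0 counts without stimulation and 17, 8, 0 and 2 at 3 h. Its ranges overlapped and its log2 fold change of 4.64 ± 1.50 (SE) did not pass (adjusted p = 0.155). From 27 counts against 1, the ratio of S100a8 levels was 32.3 with a 95% counting interval of 5.32 to 1321.

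Ccl24, the eosinophil attractant, had 0, 1, 1 and 0 counts in the unstimulated propyzamide libraries and 47, 16, 3 and 19 at 3 h. Every library at 3 h was above every unstimulated one, with levels of 37.7, 23.7, 6.17 and 14.9 CPM. The log2 fold change was 5.41 ± 1.09 (SE), with an adjusted p of 0.0175 by edgeR. From 85 counts against 2, the ratio of levels was 50.8 with a 95% counting interval of 13.6 to 426. The Ccl24 and S100a9 calls were both lost when unstimulated replicate 3 was left out (adjusted p = 0.0716 and 0.0661), and with limma-voom and sample quality weights (adjusted p = 0.180 and 0.0944). Over all the alternatives, the adjusted p ran from 4.20e-05 to 0.180 for Ccl24 and from 1.36e-06 to 0.0944 for S100a9.

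Among the interferon-gamma-induced ligands, Cxcl10 had 0, 2, 0 and 1 counts without stimulation and 23, 6, 1.7 and 4 at 3 h in the propyzamide libraries. The groups did not overlap, at 18.4, 8.90, 3.50 and 3.14 CPM against 1.80 CPM at most, but the log2 fold change of 3.56 ± 1.16 (SE) did not pass (adjusted p = 0.155, edgeR). Ranges that did not overlap, with the 3 h group higher, were found for 3 of the 8 genes (S100a9, Ccl24 and Cxcl10) and for 2.68% of all genes tested. Cxcl9 was not tested in the fit because its counts were too low, at 0, 1.6, 1.0 and 1.8 counts without stimulation and 15.6, 2.1, 0 and 7.1 at 3 h. In a fit with no filter on low counts, which tested 48267 genes, its log2 fold change was 2.32 ± 0.996 (SE) with an adjusted p of 0.811. Ifng, which encodes interferon-gamma, was itself at 0 in both unstimulated groups and in the vehicle groups at 3 h and 24 h.

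Acod1, the itaconate enzyme, had 1, 8, 11 and 1 counts without stimulation and 44, 17, 0 and 13 at 3 h with propyzamide. Its levels were 35.3, 25.2 and 10.2 CPM in 3 libraries at 3 h and 0 in the shallowest, so that the groups overlapped. The log2 fold change was 2.05 ± 0.81 (SE) and did not pass (adjusted p = 0.276, edgeR). The genes already present without stimulation had the smallest estimates: Ccl3 had a log2 fold change of 1.19 ± 1.14 (SE), Ccl4 of 0.92 ± 0.77 and Il1b of -0.15 ± 0.61. Their adjusted p ran from 0.622 to 0.922, and their 95% intervals were -1.14 to 3.52 for Ccl3, -0.66 to 2.50 for Ccl4 and -1.39 to 1.09 for Il1b. The sign of the Il1b value turned with the scaling and with the shallowest library: it was 0.09 when only named protein-coding genes were used and 0.18 without propyzamide 3 h replicate 3.

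**Figure D2:**
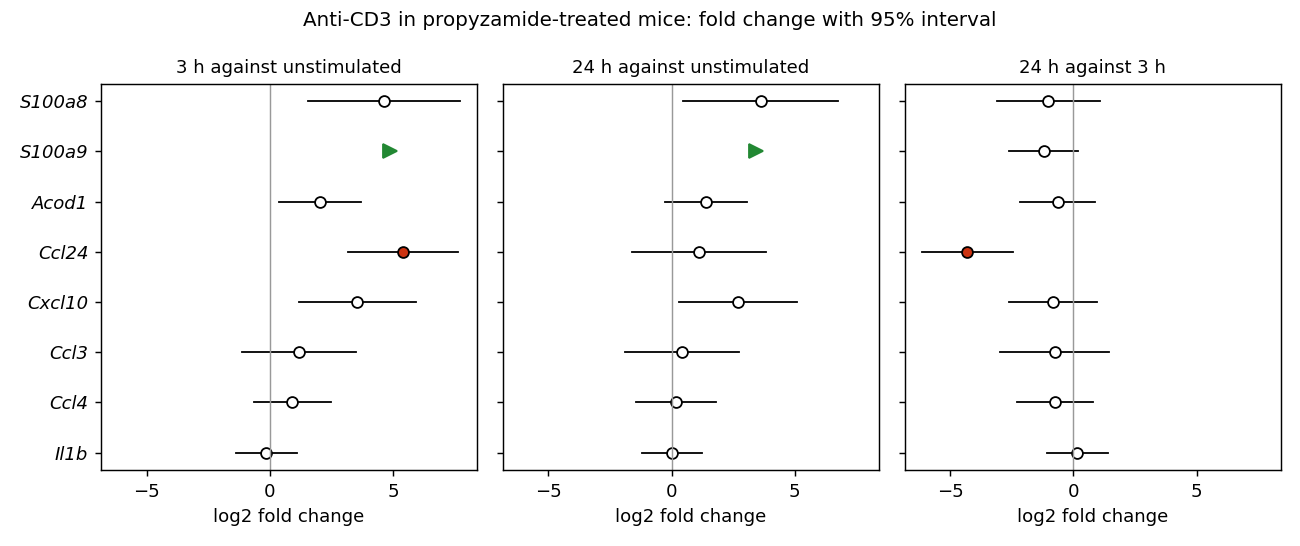
Log2 fold change (x axis) of the 8 tested genes for 3 comparisons within the propyzamide-treated mice. Points are edgeR estimates, lines are 95% intervals, and red points have an adjusted p of 0.05 or less. Green triangles are bounds for S100a9, which had 0 counts in the unstimulated group. They set its observed level against the floor of 3 counts and leave out the error of that level. Ccl24 passed at 3 h (5.41) and, downward, between 3 h and 24 h (-4.31); the S100a9 bound at 3 h is also a called gene, and the one at 24 h is not.

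At 24 h against unstimulated, 0 of the 8 genes were called with propyzamide (edgeR), where 0.079% of all genes were called and 547 genes had an unadjusted p below 0.05. S100a9 came nearest. It had 8, 3, 232 and 10 counts against 0 in each unstimulated library, so the groups did not overlap (as for 4.32% of all genes, 24 h higher), and it was at least 10.7-fold higher with an adjusted p of 0.0877. The deepest library gave 232 of those 253 counts, but its level of 7.25 CPM lay between those of the other libraries, 13.0, 2.71 and 10.4 CPM. Without it, S100a9 was at least 11.5-fold higher and passed (adjusted p = 0.0456). It also passed with DESeq2 (adjusted p = 0.00239), with RLE normalization (0.0412), with no filter (8.47e-04) and with named protein-coding genes only (0.0303). Over all the alternatives, the adjusted p ran from 8.47e-04 to 0.268.

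S100a8 had 2, 0, 170 and 4 counts at 24 h with propyzamide, a log2 fold change of 3.62 ± 1.53 (SE) over unstimulated. Cxcl10 had 4, 0, 191 and 7 counts and a log2 fold change of 2.71 ± 1.17. Acod1 had 9, 1, 395 and 19 counts and a log2 fold change of 1.40 ± 0.82. None of these 3 passed (adjusted p = 0.295, 0.296 and 0.444), and in each of them one library at 24 h was at or below the highest unstimulated one. Ccl24 had 0, 1, 39 and 1 counts and was at 0.790 ± 0.542 CPM, against an unstimulated level of 0.364 ± 0.443 CPM (log2 fold change 1.11 ± 1.33, SE, adjusted p = 0.736). Ccl3, Ccl4 and Il1b stood at 3.62 ± 4.90, 6.46 ± 3.82 and 29.2 ± 21.0 CPM, against 2.77 ± 2.96, 5.03 ± 3.46 and 30.0 ± 5.49 CPM without stimulation, and did not pass.

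Between 3 h and 24 h with propyzamide, Ccl24 fell by 4.31 ± 0.91 (SE) on the log2 scale (adjusted p = 0.00732, edgeR). It was the 1 gene of 8 called; 15.2% of all genes were called in this comparison and 6.63% were called lower. All 4 libraries at 24 h were below all 4 at 3 h, as for 8.87% of all genes, at 0, 0.903, 1.22 and 1.04 CPM against 6.17 to 37.7 CPM. The call was kept in each fit that left out 1 library of these groups, with log2 fold changes of -4.89 to -3.86 over all the alternatives in which it was tested. S100a9 had a log2 change of -1.21 ± 0.68 over the same interval, S100a8 of -1.02 ± 1.01, Cxcl10 of -0.85 ± 0.88, Ccl3 of -0.76 ± 1.08 and Acod1 of -0.64 ± 0.74. None of these passed (adjusted p from 0.210 to 0.638), and 7 of the 8 estimates were below 0 where the median of all genes was 0.15.

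The ratio of Ccl24 to S100a9 counts within a library does not depend on depth or scaling. This pair was chosen after the values were seen. Of the Ccl24 and S100a9 counts together, Ccl24 made up 52.8%, 51.6%, 75.0% and 52.8% in the propyzamide libraries at 3 h and 0%, 25.0%, 14.4% and 9.09% at 24 h. The groups did not overlap, and the mean share was 58.0% ± 11.3 and 12.1% ± 10.4 (SD, n = 4 each); no test is given because the pair was picked on these values. With vehicle the shares were 78.6%, 32.0%, 0% and 65.1% at 3 h and 14.3%, 0%, 20.0% and 0% at 24 h. These groups overlapped through vehicle 3 h replicate 3, which had 0 Ccl24 and 5 S100a9 counts.

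**Figure D3:**
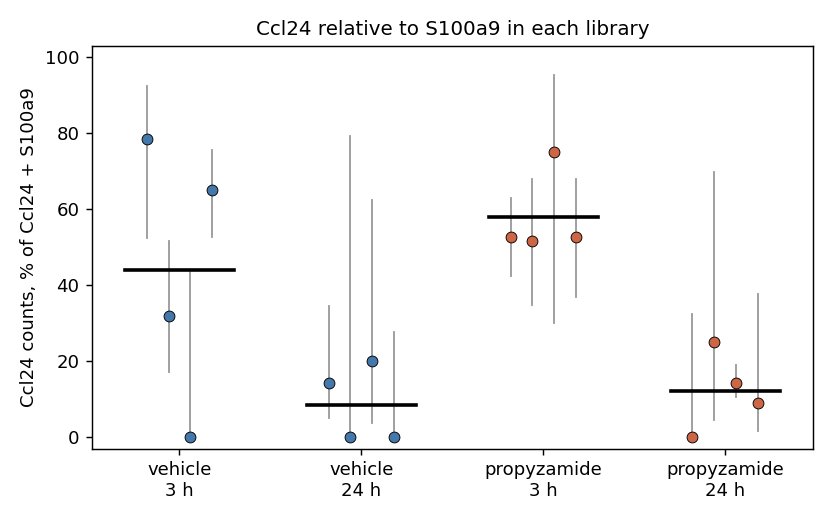
Share of Ccl24 in the summed Ccl24 and S100a9 counts (y axis, %) in each stimulated library; points are libraries, grey lines are 95% Wilson intervals of counting error, and black bars are means over 4 libraries. In the propyzamide libraries the share was 51.6% or more at 3 h and 25.0% or less at 24 h.

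For the calprotectin partners, S100a8 made up 26.5% of the S100a8 and S100a9 counts in the propyzamide libraries at 3 h (27 of 102 counts, 95% Wilson interval 18.9% to 35.8%) and 36.5% in the vehicle libraries at 3 h (26.4% to 47.9%). At 24 h it made up 32.7% with vehicle (21.2% to 46.6%) and 41.0% with propyzamide (36.5% to 45.7%), where the deepest library gave 42.3%; without that library it was 22.2% (6 of 27 counts, 10.6% to 40.8%). No library had more S100a8 than S100a9 counts after stimulation except vehicle 3 h replicate 1, with 5 against 3. The difference between groups was not tested.

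In the vehicle groups, by which several of the genes were chosen, the values are given without tests. S100a9 counts were 3, 17, 5 and 22 at 3 h and 18, 1, 4 and 10 at 24 h against 0 in each unstimulated library, at least 32.8-fold and 22.1-fold higher. S100a8 counts were 5, 9, 1 and 12 at 3 h and 10, 1, 0 and 5 at 24 h against 0 throughout, at least 18.8-fold and 10.7-fold higher. Both calprotectin transcripts were seen in every vehicle library at 3 h, and S100a8 in 3 of 4 at 24 h. Acod1 counts were 0, 6, 1 and 0 without stimulation, 21, 28, 8 and 43 at 3 h and 40, 8, 4 and 9 at 24 h, with log2 fold changes of 4.97 ± 0.93 (SE) and 3.97 ± 0.94. Ccl24 counts were 1, 0, 0 and 0, then 11, 8, 0 and 41 at 3 h, then 3, 0, 1 and 0 at 24 h. The log2 fold change of Ccl24 between 3 h and 24 h was -4.12 (95% interval -6.17 to -2.08).

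Cxcl10 with vehicle had 1, 0, 0 and 0 counts without stimulation, 11, 9, 0 and 15 at 3 h and 24, 3, 2 and 8 at 24 h, or 11.2 ± 9.40 and 9.23 ± 6.89 CPM after stimulation. Cxcl9 had 2 counts without stimulation, 15.6 at 3 h and 6.2 at 24 h. Ccl4 was at 3.58 ± 2.39, 13.0 ± 12.5 and 7.20 ± 3.19 CPM, and Ccl3 at 2.53 ± 1.98, 7.78 ± 7.58 and 2.48 ± 3.89 CPM. Il1b, at 16.6 ± 6.45, 22.4 ± 13.3 and 14.0 ± 12.0 CPM, had overlapping ranges at all 3 stages. At 3 h the ranges of S100a8, S100a9 and Acod1 lay wholly above the unstimulated ranges, 3 of 8 genes where 1.47% of all genes did so. At 24 h the same held for S100a9, Acod1 and Cxcl10, where 2.97% of all genes did so. Several of the genes were picked by their rise with vehicle, so a larger share than that of all genes was built in.

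After stimulation the order of levels per transcript length turned over. By median TPM, Il1b led both unstimulated groups, at 8.48 with vehicle and 11.6 with propyzamide. S100a9 led the propyzamide groups at 3 h (27.6) and 24 h (15.8) and the vehicle group at 24 h (9.37), and S100a8 (12.2) and S100a9 (12.0) led the vehicle group at 3 h. Ccl24 was second in the propyzamide group at 3 h (12.8) and last in both groups at 24 h (0.209 with vehicle and 0.932 with propyzamide). Neighbours in the order overlapped over the 4 libraries of each stimulated group, so the order among them is a description.

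Propyzamide and vehicle were compared at each stage to ask whether the treatment changed the level of these genes. None of the 8 tested genes was called at any stage by edgeR, and 0% of all genes were called at each stage, where 128, 114 and 388 genes had an unadjusted p below 0.05 without stimulation, at 3 h and at 24 h. DESeq2 called 1, 0 and 3 genes, and edgeR with no filter on low counts 19, 11 and 65 of 48267, none of them among the 9. At 3 h the log2 fold changes of propyzamide against vehicle ran from -0.72 for Acod1 to 0.47 for S100a9, and the 95% intervals of the 8 genes lay within -2.45 and 1.90. At 24 h they ran from -0.92 for Cxcl10 to 1.02 for Il1b, within -2.70 and 2.68. Intervals of this width do not show that the treatments were alike.

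Acod1 had the lowest unadjusted p of the 8 genes without stimulation, with 0, 6, 1 and 0 counts with vehicle against 1, 8, 11 and 1 with propyzamide. Its levels were 0.785 ± 1.25 and 4.03 ± 3.08 CPM, the ranges overlapped, and the log2 fold change of 2.20 ± 1.02 (SE) had an unadjusted p of 0.0388 and an adjusted p of 1 (edgeR). Il1b without stimulation was at 16.6 ± 6.45 CPM with vehicle and 30.0 ± 5.49 CPM with propyzamide, ranges of 7.68 to 23.1 and 22.3 to 35.1 that overlapped only narrowly (log2 fold change 0.87 ± 0.61, SE, adjusted p = 1). S100a8, S100a9, Ccl24 and Cxcl10 were at or under the floor of 3 counts in both unstimulated groups, and no fold is given for them.

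**Figure D4:**
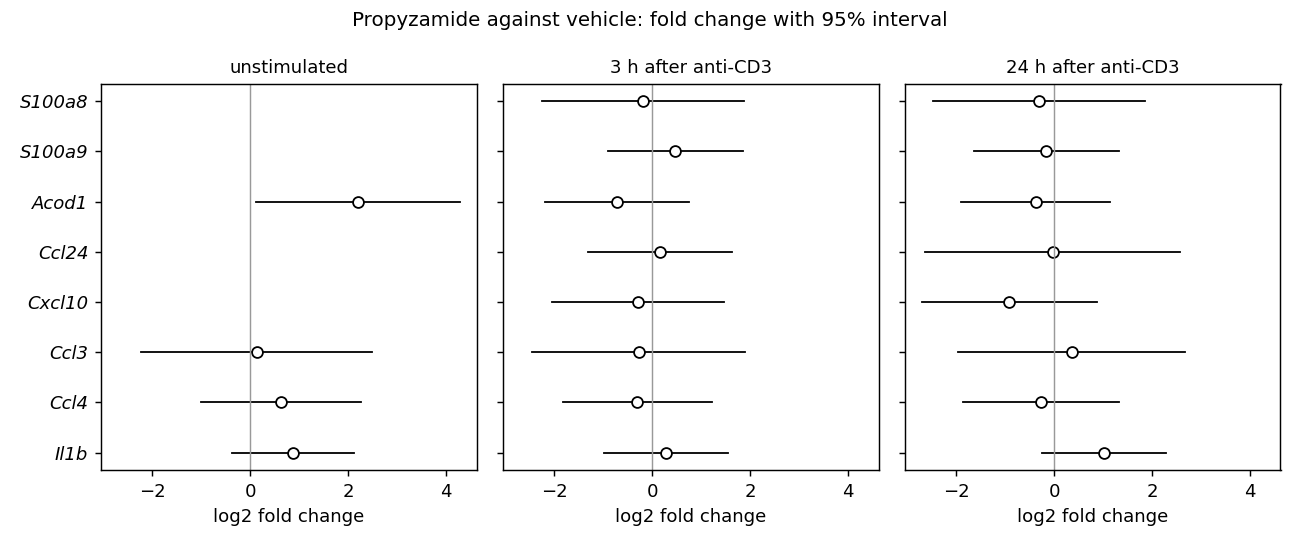
Log2 fold change of propyzamide against vehicle (x axis) for the 8 tested genes at each stage; points are edgeR estimates and lines are 95% intervals, and genes at or under 3 counts in both unstimulated groups are left blank. Every interval at 3 h and at 24 h includes 0, and no gene passed at any stage.

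The difference between the treatments in the anti-CD3 response was tested as an interaction, which contains the vehicle response used to pick several of the genes. None of the 8 genes was called at 3 h or at 24 h by edgeR, and 0% of all genes were called by edgeR or DESeq2 (123 and 89 genes had an unadjusted p below 0.05 in edgeR); with no filter edgeR called 21 and 20 of 48267 genes, none among the 9. The estimate for Acod1 was -2.92 ± 1.25 (SE) at 3 h, with an unadjusted p of 0.026 and an adjusted p of 0.997. At 24 h it was -2.57 ± 1.26, with an adjusted p of 1.

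One technical feature ran along with some of these comparisons. Library names ended in a pair of joined sequences, and the second of the pair is called the index here. It was one sequence for the unstimulated groups and the vehicle 3 h group. Another was shared by the propyzamide 3 h group and both 24 h groups. The labels do not say what these sequences are and do not call them a batch. The comparisons of propyzamide at 3 h and at 24 h with unstimulated mice therefore cannot be told apart from the index. The same holds for propyzamide against vehicle at 3 h, and for vehicle at 24 h against unstimulated and against 3 h. It also holds for the interaction at 3 h. The fall of Ccl24 between 3 h and 24 h with propyzamide lay within 1 index.

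Other genes of the same pathways were counted from lists, leaving the 9 genes out. At 3 h with propyzamide, edgeR called none of the listed genes that could be tested. These were 4 further chemokine ligands, 6 chemokine receptors, 3 calprotectin receptors and S100 partners, and 6 genes of the interleukin-1 pathway. The other lists had 6 tested enzymes of itaconate metabolism and macrophage activation, 6 genes that link interferon-gamma to the CXCR3 ligands, 4 cytokine or feedback genes of NF-kappaB and 1 gene of the eosinophil axis. Nearest to the threshold was Irf1, an interferon-induced transcription factor, with a log2 fold change of 1.78 ± 0.50 (SE) and an adjusted p of 0.0886. Cd14, the co-receptor for bacterial lipopolysaccharide, stood at 2.07 ± 0.82 (adjusted p = 0.276), Il1rn, the interleukin-1 receptor antagonist, at 1.52 ± 0.80 (0.419), and Cxcl2, which draws neutrophils, at 1.40 ± 0.72 (0.406). At 24 h against unstimulated, edgeR called none of these genes either.

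Between 3 h and 24 h with propyzamide, Jak1, a kinase of the interferon receptors, rose by 2.53 ± 0.55 (SE, log2, adjusted p = 0.0078, edgeR), where 8.61% of all genes were called higher. No listed gene fell, so that among chemokine ligands tested Ccl24 was the 1 called gene; Ccl25, Cxcl16, Ccl6 and Cxcl2 stood at 1.69 ± 0.85, 0.80 ± 0.62, -0.43 ± 0.77 and -1.07 ± 0.70.

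Marker genes of the cells known to make these products were summed in each library. The summed level of 15 macrophage and monocyte genes ran from 76.7 to 179 CPM in unstimulated propyzamide libraries, 32.3 to 167 at 3 h and 84.9 to 172 at 24 h. None of its 6 tested genes was called in any of these 3 comparisons. Lyz2, lysozyme of myeloid cells, stood at 29.0 ± 10.9, 26.2 ± 21.0 and 38.6 ± 5.28 CPM, with Fcgr1 at 0 in vehicle at 24 h and C1qc at 0 in propyzamide at 3 h. The 12 neutrophil genes summed to 21.4 to 31.9 CPM, then 2.06 to 53.7, then 11.0 to 46.4. The 2.06 CPM at 3 h was in the shallowest library. The other libraries at 3 h were at 51.6, 53.7 and 39.2 CPM, above every unstimulated propyzamide library. Neither of their 2 tested genes was called; Retnlg, a neutrophil resistin-like gene, had a log2 change of -2.36 ± 0.83 between 3 h and 24 h (adjusted p = 0.0515). At 3 h, Retnlg and Cxcr2 had log2 fold changes of 1.26 ± 0.81 and 0.35 ± 0.67 (SE) over unstimulated. The median neutrophil sum was 22.4 CPM without stimulation, 45.4 at 3 h and 31.5 at 24 h. Of the 12 genes, Elane and Ly6g were at 0 in propyzamide libraries both without stimulation and at 3 h. Camp, Mpo and Ltf were at 0 without stimulation but not at 3 h, and Ngp was at 0 at 3 h alone. None of the 12 was at 0 at 24 h, the group with the deepest library.

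With propyzamide, the 8 eosinophil genes summed to 3.70 to 25.4 CPM without stimulation and 9.77 to 23.4 at 3 h (medians 12.3 and 14.1). At 24 h their sum was 4.43 to 18.8 CPM. Ear1 and Ear6 were at 0 without stimulation, Ear1, Ear2, Ear6 and Prg2 at 3 h, and Ear2 at 24 h. The 1 tested gene, Il5ra, had a log2 fold change of 0.30 ± 0.57 (SE) at 3 h and was not called. The 12 T cell genes summed to 26.4 to 44.1, 4.69 to 39.1 and 56.5 to 134 CPM, and the 6 B cell genes to 114 to 256, 12.3 to 133 and 288 to 554 CPM. Between 3 h and 24 h with propyzamide, 2 of 4 tested T cell genes (Lck and Trbc2) and the B cell genes Cd79a, Cd79b, Ighd and Ighm rose. At 3 h, 3 of 4 Paneth cell genes (Defa24, Itln1 and Lyz1) fell against unstimulated, where 0.553% of all genes were called lower. The summed level of the 4 genes was 1057 to 2763 CPM without stimulation and 214 to 920 at 3 h. The part of these shifts in the levels of the 9 genes was not tested.

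**Figure D5:**
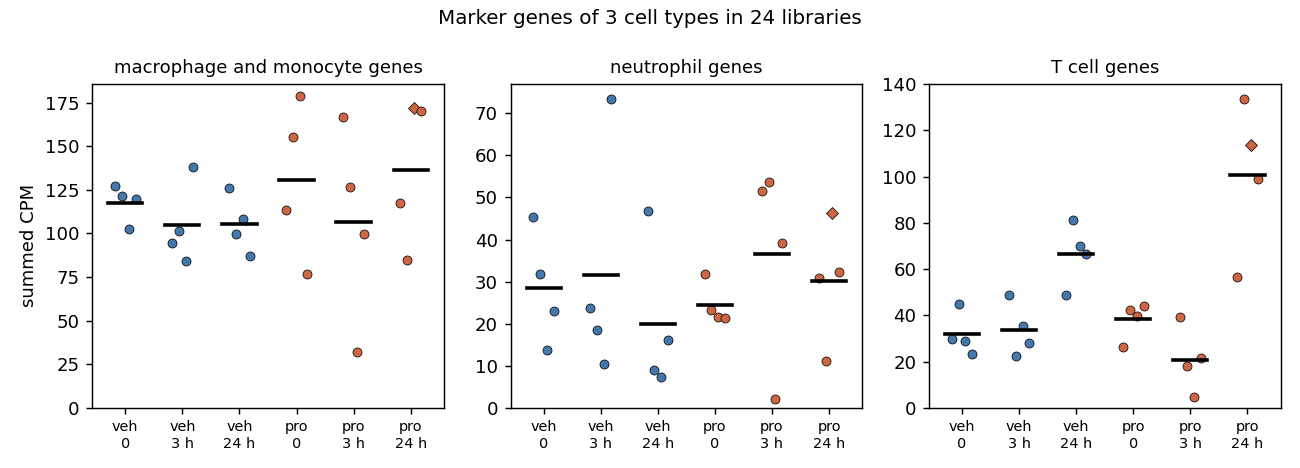
Summed CPM (y axis) of marker genes of macrophages and monocytes, neutrophils and T cells in each library, by treatment and stage; points are libraries, bars are means over 4 libraries and the diamond is the deepest library. The macrophage and neutrophil sums overlap between all stages. With propyzamide, the neutrophil sums at 3 h and without stimulation overlap only through the shallowest library. In the propyzamide groups the T cell sum is 56.5 or more at 24 h and 39.1 or less at 3 h.

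The likeness of the 8 tested genes across the 24 libraries is given as Pearson correlations of log2 CPM, which share depth and the same 6 groups. S100a8 varied most like Acod1 (r = 0.90), Cxcl10 (0.89) and S100a9 (0.86). Ccl24 was less close to S100a8 (0.64) and Acod1 (0.54), and Il1b was far from S100a9 (0.18) and Cxcl10 (0.23) but nearer Ccl3 (0.68). Of 2474 named protein-coding genes outside the set, the most alike to S100a9 were Irf1 (0.82), Gzmb (0.81), a granule protease of cytotoxic lymphocytes, and Gbp2 (0.81), an interferon-induced GTPase. Cxcl10 was most like Gbp2 (0.78), Igtp (0.77) and Serpina3g (0.70), and Acod1 most like Gzmb (0.76), Gbp2 (0.75) and Cd14 (0.75). Ccl24 was most like Serpina3g (0.79), Sprr2a2 (0.72) and G0s2 (0.70), and S100a8 most like Ifi47 (0.78), Cd14 (0.76) and Ccrl2 (0.75). Ccl3 was most like Ccrl2 (0.85), Il1rn (0.81) and Hcar2 (0.80), Ccl4 most like Cd14 (0.77), Litaf (0.73) and Bop1 (0.73), and Il1b most like Ptafr (0.86), Nfkbiz (0.81) and Tgm2 (0.79).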

How the data were processed

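Each group had 4 SMART-seq2 libraries. Per the submitters' processing notes, reads were quantified with kallisto on GRCm38, with no version given. Per the file headers, the authors deposited estimated counts for each transcript, without depth scaling, and TPM. Effective length was not used here. Counts of 142604 transcripts were summed to 55401 genes and rounded for testing. The counts of 7 of the 9 genes were whole within 0.01 in every library; those of Cxcl9 and Cxcl10 were not.

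Counts were fitted with edgeR 4.0.16 in R 4.3.3: 1 coefficient per group over 24 libraries, filterByExpr (3799 genes left), TMM, and the quasi-likelihood test, with Benjamini-Hochberg adjustment over all genes within a comparison and a threshold of 0.05. The code was tested on simulated data. CPM are TMM-scaled, and log2 CPM for correlations had a prior count of 2. Alternatives were limma 3.58.1, DESeq2 1.42.0, RLE normalization, no filter, other gene or group subsets, and leaving out each library. Intervals are 95%. The SE of an edgeR log2 fold change was derived as its absolute value over the square root of the quasi-likelihood F. Its interval is a t quantile times that SE and includes the spread between libraries. Counting intervals of ratios, Wilson intervals and floors of 3 counts cover counting error only. A fold set against a floor leaves out the error of the higher group.

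Members and lists were chosen with earlier results of these data known. All members are named; of the lists, genes are named if called or among the 4 with the most counts, and the 3 most alike genes per member by r. Replicates were numbered in record order, and the labels do not say that they are separate mice, so p-values measure the spread between these libraries. No library pair held identical values. Index sequences in the library names were used only to see which groups shared one. Amino acid sequences were not used. Results for some listed genes are not reported here.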

Additional observations from a re-analysis of the deposited data

Results flagged for a closer look

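In 42 gene-and-group sets of 4 libraries with any spread, 2 had a library far from the other 3 by Dixon's criterion; chance alone flags about 1 in 20 such sets. Ccl3 in propyzamide unstimulated replicate 2 was the highest of its group at 7.20 CPM, and the next library was at 1.67 CPM. Ccl4 in vehicle unstimulated replicate 3 was the lowest of its group at 0 CPM, and the next library was at 4.54 CPM.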

How the results depend on the processing

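The limits are the low counts, the 1 very deep and 1 very shallow library, and 4 libraries per group. For propyzamide at 3 h against unstimulated, 2 genes were called, and 0 were called when the fit held just the 2 groups (in which the filter left Il1b alone of the 9), 0 with limma-voom and 0 to 2 with 1 library left out; the fit without propyzamide unstimulated replicate 3 gave 0. For propyzamide at 24 h against unstimulated, the count of 0 became 1 (S100a9) with RLE normalization, with no filter, with DESeq2, with named protein-coding genes alone, and without both the deepest and the shallowest library, a setting chosen after seeing the data; it was 0 to 1 with 1 library left out. Between 3 h and 24 h with propyzamide, the count of 1 (Ccl24) became 0 in the fit of only those groups, where Ccl24 was not tested. With vehicle, 8 genes were above 0 at 3 h, 7 at 24 h and 0 between 3 h and 24 h; in fits of only the groups compared these were 2 and 0 for the first pair, because 2 and 1 of the genes were tested, and for the last it was 1 with limma-voom and 0 to 3 with 1 library left out. The log2 fold change of Il1b at 3 h with propyzamide turned from -0.147 to 0.0868 with named protein-coding genes only, to 0.16 without the deepest and shallowest libraries and to 0.18 as the highest with 1 library left out (lowest -0.81). That of S100a9 between treatments at 3 h was 0.47, and ran from -0.0392 (without propyzamide 3 h replicate 1) to 1.08 with 1 library left out. Against the main scaling, RLE moved the median gene by 0.34 and named genes only by -0.50 between 3 h and 24 h with propyzamide, where calls split 327 higher and 252 lower, against 694 and 197 with RLE; Ccl24 was called lower under each. No paired analysis was possible because the labels give replicates no number.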
